A study of Arabidopsis thaliana with 4 samples.

Results

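The genes carried by the chloroplast genome of *Arabidopsis thaliana* were followed in seedlings exposed to the volatiles of a bacterium. They were taken as every non-control row of the arrays whose locus code starts with ATCG and ends in 5 digits, and the probes of a locus were averaged. This gave 66 loci on 75 probes, of 29030 loci with a code on the array. RefSeq lists 129 plastid genes, so the 66 loci do not cover all of them. The study exposed whole Col0 seedlings, 7 days old, to the volatile organic compounds released by *Erwinia amylovora* (mVOCs), the bacterium of fire blight, with which they shared a divided dish. Each of 4 two-colour Agilent arrays held RNA of seedlings exposed for 16 h, labelled with Cy5, beside RNA of unexposed control seedlings, labelled with Cy3, from roots and shoots together. No array had the dyes the other way round, so the effect of dye and that of exposure cannot be told apart. Replicates 1 and 2 were on slide 1, and replicates 3 and 4 on slide 2. A free-text field of all 4 samples calls them untreated embryonic stem cells, which contradicts the organism, the source and the agent given for each channel, and it was not used.

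Chloroplasts keep a small genome of their own, whose genes encode parts of the photosynthetic complexes, of the plastid ribosome and of a bacterial-type RNA polymerase. That polymerase depends on sigma factors and associated proteins made from nuclear genes, and a phage-type polymerase, also nuclear-encoded, reads some plastid genes as well. The amount of a plastid transcript depends strongly on RNA processing and decay as well as on transcription. Most plastid transcripts lack a stable poly(A) tail, whereas the labels describe priming with an oligo-dT primer. How far plastid RNA was labelled was not tested. None of the sources used here pairs the ATCG codes with gene names, so loci are given by code. Only the pair with the largest rise and the pair with the largest fall are written out in full. Other chloroplast loci are named as examples, chosen after their values were seen.

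Chloroplast loci were among the brightest on the arrays. Their median brightness, the mean log2 intensity of both channels, was 14.9, with a range of 9.92 to 17.8, against 9.05 for all loci. They made up 8 of the 20 brightest loci, 17 of the 50 brightest and 29 of the 200 brightest. All 75 probes were well above background in both channels on all 4 arrays, so that none of the loci was dim, and saturated spots numbered 0. Before normalization, the median intensity of the 66 loci was 35977, 32277, 36332 and 36079 in mVOC-exposed seedlings on replicates 1 to 4, against 29192, 22840, 28602 and 24676 in control seedlings. The Cy5 channel was the brighter one for the array as a whole too, since the median of all non-control spots was 394 to 460 in mVOC-exposed seedlings and 344.5 to 413 in control seedlings. Of the 75 chloroplast spots, 50 to 53 per array in mVOC-exposed seedlings and 45 to 48 in control seedlings exceeded the first scan and were read from a second scan at lower gain, scaled up by the software. The corresponding numbers over all 43803 non-control spots were 1324 to 1607 and 950 to 1216.

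After background correction and loess normalization, which removes within each array the trend of the log ratio with brightness, 9 of the 66 chloroplast loci were higher and 23 were lower in mVOC-exposed seedlings, and 34 did not pass an adjusted p of 0.05 (limma, Benjamini-Hochberg over all loci). Over all 29030 loci the same fit called 17.3%, of which 9.33% of loci were higher and 7.96% were lower. Those loci include dim ones. With only probes well above background kept, 2921 of 21331 loci were higher and 2548 lower. The chloroplast counts were again 9 and 23 of 66. The median log2 ratio of mVOC-exposed over control was -0.10 for the chloroplast loci and 0.0029 for all loci, and the chloroplast values ran between -0.45 and 0.65. The mean ratio was negative for 47 chloroplast loci and positive for 19, and 41 had 1 direction on every array, 29 of them down and 12 up. Over all 29030 loci, the mean ratio was negative for 14137 and positive for 14893. Of all loci, 11873 had 1 direction on every array, 5643 of them down and 6230 up. Per array, the chloroplast median was -0.08, -0.10, -0.08 and -0.08 for replicates 1 to 4. Positive loci numbered 17 of 65, 23, 24 and 21 of 66. The number below 66 reflects 1 spot that the software marked as an outlier on replicate 1, so that its locus, which is among the 9 higher ones, was fitted on 3 arrays. Across 65 loci measured on every array, any 2 arrays gave log2 ratios with an r of 0.73 to 0.91 between them. This is a description over loci, which share the array, its trend with brightness and its dyes. With each array centred on its median in place of loess, 41 chloroplast loci were higher and 0 lower, beside 20.7% and 21.3% of all loci. Without replicate 4, 8 chloroplast loci were higher and 14 lower, beside 5.68% and 5.23% of all loci. In limma with no offset 0 chloroplast loci passed, beside 0% higher and 0.00344% lower of all loci, and 9 were higher and 28 lower at an unadjusted p under 0.05. An ordinary test gave 0 as well, beside 0.0138% higher and 0.0448% lower, with 9 higher and 25 lower unadjusted. At an unadjusted p under 0.05, 7485 of all 29030 loci passed in limma with no offset and 6341 with the ordinary test, both directions together.

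**Figure D1:**
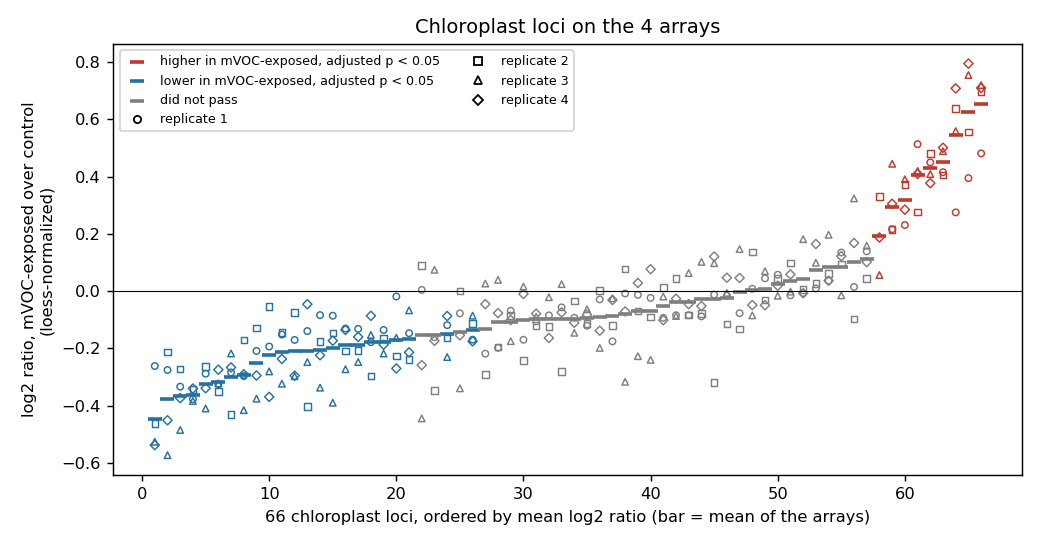
Loess-normalized log2 ratio of mVOC-exposed over control seedlings (vertical axis) of the 66 chloroplast loci ordered by their mean (horizontal axis), with a symbol for each of the 4 arrays and a bar for the mean. The 9 higher loci (red) reach 0.65, the 23 lower loci (blue) reach -0.45, and the 34 grey loci did not pass.

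The largest rise was that of ATCG00020, which is measured by a pair of probes. Its median intensity before normalization was 255578, 267228, 291522 and 282125 in mVOC-exposed seedlings on replicates 1 to 4, against 114794, 97492, 101453 and 93359 in control seedlings. Every exposed value was above every control value, but before normalization this does not set the locus apart. ATCG00540, which did not pass at a log2 ratio of 0.0030, gave 215190 to 230578 against 122694 to 141982. The normalized log2 ratios of ATCG00020 were 0.48, 0.70, 0.72 and 0.71, with a mean of 0.65 ± 0.11 (SD, n = 4), a 1.57-fold level, and limma gave an adjusted p of 7.4e-05. The 2 probes differed from each other, with means of 0.82 and 0.48. The log2 ratio of the locus was 1.25 with each array centred on its median and 0.42 with the scanner software's ratio.

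ATCG01210 followed, with 1 probe. Its intensities before normalization were 287402, 334567, 393108 and 375620 in mVOC-exposed seedlings and 140480, 135217, 132011 and 116942 in control seedlings, again without overlap. Its normalized log2 ratios of 0.40, 0.56, 0.76 and 0.80 averaged 0.63 ± 0.19 (SD, n = 4), with an adjusted p of 0.00032 in limma. It was 1.26 with median centring, above the 1.25 of ATCG00020, against 0.27 with the scanner software's ratio and 0.30 with the series table. Replicate 1 was the lowest of the arrays for both of these loci. The 9 higher loci had log2 ratios between 0.19 and 0.65, with a median of 0.43, and all lay at a brightness of 16.8 or more. All 9 were read from the scaled-up scan in both channels on every array.

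The largest fall was that of ATCG00740, with log2 ratios of -0.26, -0.46, -0.53 and -0.54, a mean of -0.45 ± 0.13 (SD, n = 4) and an adjusted p of 0.00055 in limma. Before normalization this locus was brighter in the exposed channel on every array, at 57151, 51880, 56179 and 53489 in mVOC-exposed seedlings, against 49235, 47882, 52890 and 48025 in control seedlings. The negative ratio therefore states a level below that of other loci of the same brightness, and with each array centred on its median in place of loess it came to 0.0044 (adjusted p = 0.97). With the scanner software's ratio, ATCG00740 was at -0.48 (adjusted p = 0.0045, limma).

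ATCG00890 had log2 ratios of -0.28, -0.21, -0.57 and -0.45, a mean of -0.38 ± 0.16 (SD, n = 4) and an adjusted p of 0.0022 in limma. Its intensities were 19440, 17102, 16391 and 17247 in mVOC-exposed seedlings and 18365, 14540, 17769 and 16125 in control seedlings, so the groups overlapped and replicate 3 alone was lower in the exposed channel. With median centring its log2 ratio was -0.06 (adjusted p = 0.53), and with the scanner software's ratio it was -0.31 (adjusted p = 0.0094, limma). The 23 lower loci ran between -0.45 and -0.14, with a median of -0.21, at a brightness of 10.5 to 16.4. Of these, 13 were read from the scaled-up scan in every reading.

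The sign of the chloroplast calls depended on how the trend with brightness was handled. With median centring, which leaves that trend in place, 41 chloroplast loci were higher and 0 lower, beside 20.7% higher and 21.3% lower over all loci, and the chloroplast median was 0.27. At an unadjusted p under 0.05 in limma, 45 were then higher and 1 lower. In this limma fit, the adjusted p of chloroplast loci on 4 arrays followed the size of the ratio alone, not its spread between arrays. ATCG01100 and the nuclear gene *CAB2*, each at 0.20, had an adjusted p of 0.031 each. Calls with this setting, here and elsewhere, therefore act as a cutoff on the ratio. All 9 loci that were higher after loess stayed higher, whereas of the 23 lower loci only 6 kept a negative ratio and 6 others passed as higher. Replicate 4 stood apart under this setting, with a chloroplast median of 0.56 and 66 positive loci, against 0.17 to 0.19 and 50 to 54 positive loci on the others. Its brightest local background was 59573 in the control channel and 32072 in the exposed channel, against at most 69 and 95 on the others. When spots with a marked background were kept out of the background model, the centred median of replicate 4 was 0.26, and 43 chloroplast loci were higher and 4 lower, beside 28% and 27.4% of all loci. The scanner software's own dye-normalized ratio went the other way, with 5 chloroplast loci higher and 40 lower, beside 15.3% in each direction over all loci, and a median of -0.12. Of the 9 higher loci, 4 were still called higher with this ratio, and of the 23 lower loci, 22 were still called lower.

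**Figure D2:**
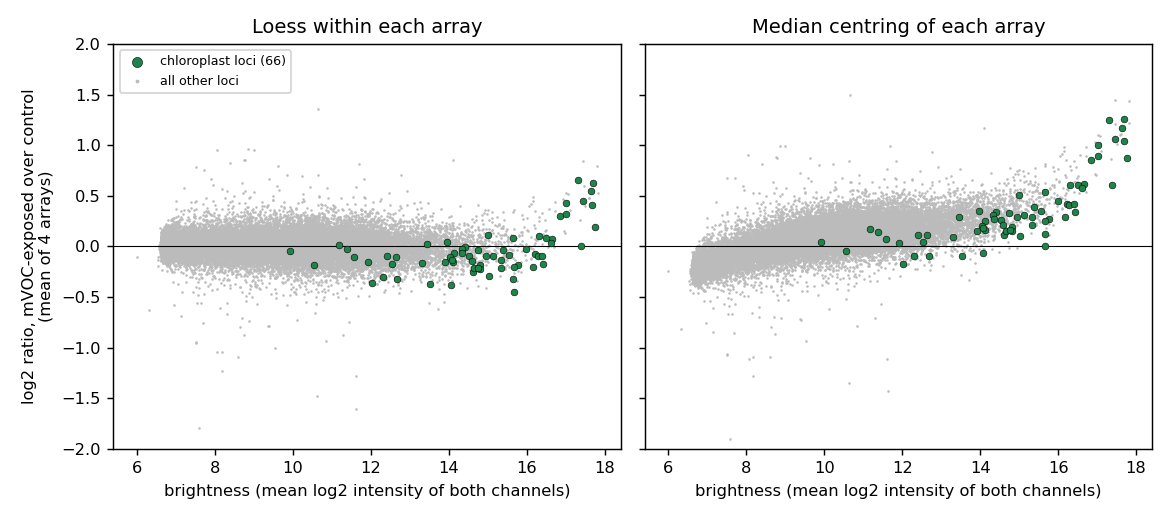
Mean log2 ratio of mVOC-exposed over control seedlings (vertical axis) against brightness, the mean log2 intensity of both channels (horizontal axis), for 66 chloroplast loci (green) and all other loci (grey), after loess (left) and after median centring (right). With centring, ratios climb with brightness for both kinds of locus and the chloroplast median is 0.27. After loess it is -0.10.

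**Figure D3:**
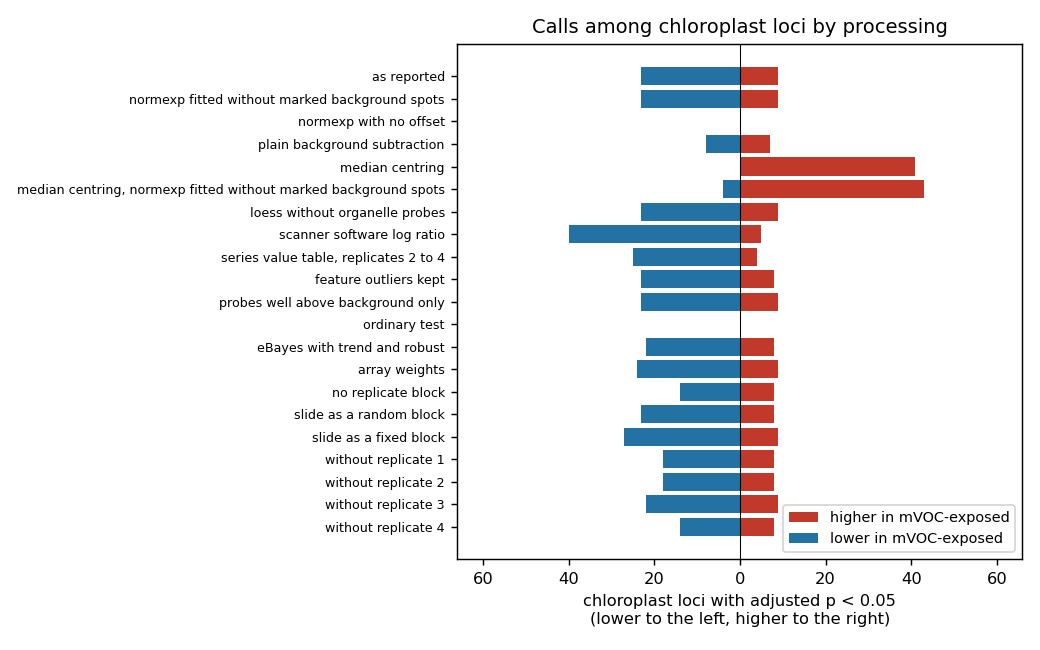
Chloroplast loci with an adjusted p below 0.05 (horizontal axis, number of loci) that were higher (red, to the right) or lower (blue, to the left) in mVOC-exposed seedlings under each processing (vertical axis). As reported, 9 were higher and 23 lower, and median centring gave 41 and 0.

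Chloroplast loci were then set beside nuclear loci of like brightness, in ranges chosen after the values were seen and with no test. From 14 to 15, the median log2 ratio was -0.12 for 18 chloroplast loci and -0.02 for 419 nuclear loci after loess, and 0.21 and 0.33 after median centring. From 15 to 16, it was -0.16 for 12 chloroplast loci and 0.02 for 136 nuclear loci after loess, and 0.28 and 0.45 after centring. In the brightest range, 16 to 18, which held all 9 higher loci, 19 chloroplast loci had a median of 0.10 and 54 nuclear loci one of 0.26 after loess, and 0.62 and 0.76 after centring. Loess thus left a positive median among the brightest nuclear loci, and the chloroplast median lay below it. Over 5 ranges and 4 arrays, the chloroplast median was below the nuclear one in 19 of 20 values after loess. It was so in 19 of 20 after centring and in 20 of 20 with the scanner software's ratio. The 20 values share loci and arrays, and within a range loess and centring move both groups in much the same way. On replicate 1 from 12 to 14, for example, the difference was -0.110 and -0.109. From 16 to 18 the 2 methods parted more. There the difference was -0.086 after loess and -0.0018 after centring on replicate 2, and -0.209 and -0.128 on replicate 3. These counts are therefore not separate results. Across the 66 loci, brightness and log2 ratio correlated with r of 0.53 (rho 0.48) after loess and 0.78 (rho 0.83) after centring, a description of loci that share arrays and dyes.

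**Figure D4:**
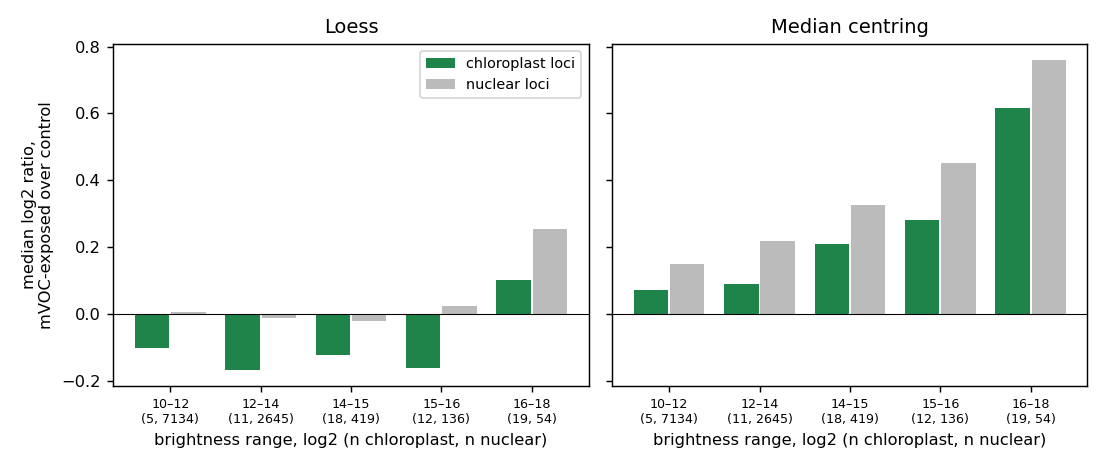
Median log2 ratio of mVOC-exposed over control seedlings (vertical axis) of chloroplast loci (green) and nuclear loci (grey) in 5 ranges of brightness (horizontal axis, with the number of loci), after loess (left) and median centring (right). The green bar lies below the grey one in each range, with 0.10 against 0.26 in the brightest range after loess.

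Probes of the same locus did not always give the same value. Of the 66 loci, 7 had more than 1 probe, and the means of their probes spread over 0.14 to 0.64 on the log2 scale. In 4 of the 7, probes of both signs met. When probes were tested one by one, 13 of the 75 chloroplast probes were higher and 27 were lower, beside 9.62% and 8.58% of all probes. Every probe of ATCG00040 and of ATCG00440 passed, but not in 1 direction, and neither locus passed after averaging. ATCG00480, among the 23 lower loci, had 1 of 2 probes passing, at -0.36 beside 0.0057. ATCG01130, also among them, had 1 of 2 passing, at -0.52 beside -0.11.

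The other organelle and the nuclear genes of photosynthesis gave the nearest comparisons, and the differences between these groups were not tested. After loess, 9.33% of all loci were higher and 7.96% lower, the shares to set beside the counts below. With median centring the shares were 20.7% and 21.3%, and with the scanner software's ratio 15.3% in each direction. Of 67 mitochondrial loci, 5 were higher and 12 lower after loess, with a median of -0.05, at a median brightness of 8.60. With median centring, 13 were higher and 19 lower (median -0.03), and with the scanner software's ratio 8 and 19 (median -0.11). Of 14 nuclear genes of photosynthesis, which mark shoot tissue, 8 rose and 1 fell, with a median of 0.15, at a median brightness of 15.4. With median centring, 14 were higher and 0 lower in limma (median 0.56), and with the scanner software's ratio 8 were higher and 3 lower (median 0.09). Among those that rose were *RBCS2B*, at 0.55 ± 0.12 (adjusted p = 0.00018), and *RBCS1A*, at 0.48 ± 0.09 (adjusted p = 0.00021, SD, n = 4, limma), which encode the small subunit of Rubisco. Both lay at a brightness of 17.6, and with the scanner software's ratio they were at 0.29 and 0.24 (adjusted p = 0.011 and 0.0096, limma). *RBCS3B*, at 0.48 after loess, was at 0.27 with that ratio and did not pass (adjusted p = 0.093, limma). Genes of the RBCS and CAB families are near-identical copies, so their probes may share signal. *CAB2*, which encodes a chlorophyll-binding protein of the light-harvesting antenna, was lower after loess, at -0.12 (adjusted p = 0.041), but higher with median centring, at 0.20 (adjusted p = 0.031). Of 10 genes that mark roots, 0 passed as higher and 1 as lower after loess in limma. The gene that passed was *EXPA7*, an expansin of root hairs, at -0.57 ± 0.13 (SD, n = 4, adjusted p = 0.00018). The list had 8 negative members of 10 and a median of -0.09, and at an unadjusted p under 0.05, 0 were higher and 5 lower. With median centring, 2 were higher and 1 lower (median 0.06), and with the scanner software's ratio 1 was higher and 6 lower (median -0.12). The median intensity of the photosynthesis list was 69693 to 88797 in mVOC-exposed seedlings and 40136 to 47339 in control seedlings, and that of the root list was 1664.5 to 2232 and 1643 to 2011. No marker of either list was at 0. The part of the ratio of shoot to root tissue in the chloroplast values was not tested. In RNA of whole seedlings, a change in the share of chloroplast-bearing cells and a change in RNA per cell cannot be told apart.

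The nuclear genes that serve plastid transcription and RNA decay were read from the same fit. Of 6 sigma factors, which direct the plastid polymerase to its promoters, 1 rose and 5 did not pass, beside 9.33% of all loci higher. With median centring, 3 were higher and 0 lower, beside 20.7% and 21.3% of all loci. With the scanner software's ratio 3 were higher and 1 lower, beside 15.3% of all loci in each direction. The gene that rose after loess, *SIG2*, had log2 ratios of 0.22, 0.12, 0.34 and 0.29, with a mean of 0.24 ± 0.10 (SD, n = 4) and an adjusted p of 0.0052 in limma. *SIGF* had a mean of 0.11 (adjusted p = 0.16). It was called higher with median centring, at 0.33 (adjusted p = 0.00058), and without replicate 2, at 0.16 (adjusted p = 0.048), whereas it was negative with the scanner software's ratio, at -0.03. *SIGE* had a mean of -0.05 (adjusted p = 0.56). Neither of the 2 phage-type polymerases passed after loess. *SCA3* had a mean of -0.02 (adjusted p = 0.82). AT5G15700 had a mean of -0.10 (adjusted p = 0.17), and it was called lower with median centring, at -0.20 (adjusted p = 0.032), and with the scanner software's ratio, at -0.26 (adjusted p = 0.020).

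Of 12 proteins associated with the plastid-encoded polymerase, 4 rose and 1 fell, beside 9.33% higher and 7.96% lower of all loci. With median centring, 5 were higher and 0 lower, beside 20.7% and 21.3% of all loci. With the scanner software's ratio the counts were 3 and 0, beside 15.3% in each direction. *FSD2*, an iron superoxide dismutase of the plastid, had log2 ratios of 0.26, 0.38, 0.35 and 0.30, with a mean of 0.32 ± 0.05 (SD, n = 4) and an adjusted p of 0.00085 in limma. The others were *PTAC14* at 0.27, *PTAC2* at 0.22 and *PTAC7* at 0.20. *PTAC7* came to 0.07 with the scanner software's ratio (adjusted p = 0.058) and to 0.52 with median centring. The gene that fell, *MURE*, a relative of a bacterial cell wall ligase, had a mean of -0.14 ± 0.05 (SD, n = 4, adjusted p = 0.034), and this passed under 8 of 20 alternative settings. Of 7 genes of plastid RNA processing and decay, 2 rose, beside 9.33% of all loci. With median centring, 4 were higher, beside 20.7%, and with the scanner software's ratio 2, beside 15.3%. *HCF152*, a pentatricopeptide repeat protein needed for processing of plastid transcripts, had log2 ratios of 0.31, 0.16, 0.60 and 0.25, with a mean of 0.33 ± 0.19 (SD, n = 4) and an adjusted p of 0.0064 in limma. *RIF10*, the plastid polynucleotide phosphorylase, an exonuclease, had a mean of 0.20 ± 0.06 (SD, n = 4, adjusted p = 0.0083). All of the genes of these lists that passed were at a brightness of 9.29 to 14.1, below the range that held the 9 higher chloroplast loci. *SIG2*, *FSD2*, AT5G15700 and the *PTAC* genes were chosen for naming after their values were seen.

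**Figure D5:**
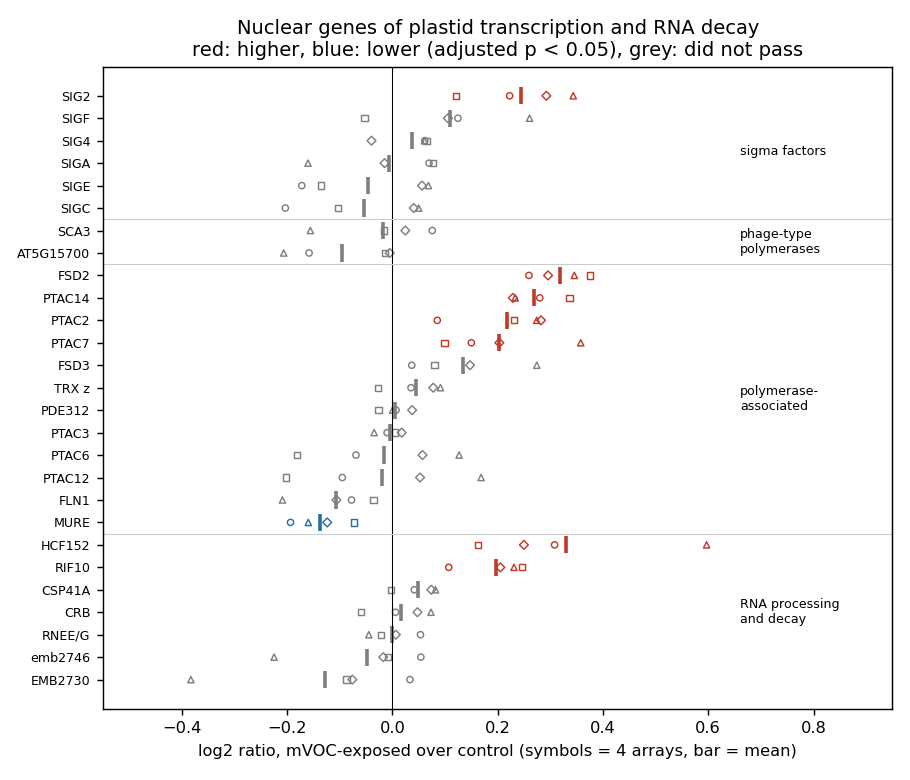
Log2 ratio of mVOC-exposed over control seedlings (horizontal axis) of 27 nuclear genes of plastid transcription and RNA decay (vertical axis), with a symbol for each of the 4 arrays and a bar for the mean. Red genes rose, led by *HCF152* at 0.33 and *FSD2* at 0.32, the blue gene, *MURE*, fell, and grey genes did not pass.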

How the data were processed

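Array data came from 4 samples, each pairing mVOC-exposed and control seedlings on 1 array. The authors deposited Agilent Feature Extraction 11.5.1.1 output, which gives for each spot and its local background a median intensity, not normalized, and the log10 ratio of Cy5 over Cy3 after the software's background subtraction and dye normalization. The paper gives 500 ng of RNA and labelled cRNA, the labels 10 µg and labelled cDNA. The authors also deposited a series table, whose columns of replicates 2 to 4 equal that log10 ratio, whereas that of replicate 1 equals its error and was not used. In R 4.3.3 with limma 3.58.1, median intensities (in place of means, which the files used here do not give) were corrected by normexp with an offset of 50, normalized by loess and averaged per probe and locus, without outlier spots. An intercept with eBayes was fitted over 29030 loci, with Benjamini-Hochberg adjustment. Offsets shrink the ratios of dim loci. Ratios were tested at an adjusted p of 0.05. The steps were also run on simulated data, whose outcome is not given here. The simulation held neither outlier marks nor the bright background of replicate 4, and it gave every array the same dye trend. The number of arrays limits precision, and whether they are separate cultures beyond being biological replicates is not given.

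Nuclear genes took RefSeq symbols. Of 66 chloroplast codes, 0 matched the RefSeq table, so groups by function or promoter and names planned for single chloroplast genes were not used, and no sequence is printed. The rule for naming took the 8 largest rises and falls among loci that passed with 1 direction on every array, of which 2 each are printed, and of the nuclear lists *SIGE*, *SIGF*, *SCA3*, *RIF10* and the largest rise and fall. Members, lists and tests were chosen with earlier results of these data known. Samples are paired by array. Deviations from the group means correlated with r of 0.25 to 0.51 for samples on 1 array and of -0.35 to 0.11 for samples on different arrays. The channels of an array share its spots, so these values cannot show a pairing of the samples beyond the shared array. Alternatives covered background, normalization, outliers, dim probes, the variance model, pairing, slide and each replicate left out.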

Additional observations from a re-analysis of the deposited data

Results flagged for a closer look

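The log2 ratio of ATCG00020 on replicate 1, at 0.48, lay far from the other arrays, which reached 0.72. Its gap to the nearest of them was 0.91 of the whole range, above the Dixon limit for 4 values. Chance passes this limit in about 1 of 20 groups, and 3 of the 65 chloroplast loci measured on 4 arrays passed it. Without replicate 1, the mean of ATCG00020 was 0.71.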

How the results depend on the processing

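Counts below give chloroplast loci higher, then lower, against 9 and 23 as reported, then all loci, against 2709 and 2310. Normexp with no offset gave 0 and 0 (all loci 0 and 1). At an unadjusted limma p under 0.05 it gave 9 and 28, beside 7485 of all loci, both directions together. An ordinary test gave 0 and 0 (all loci 4 and 13), and unadjusted 9 and 25, beside 6341 of all loci. Plain subtraction gave 7 and 8 (1402 and 922), median centring 41 and 0 (5999 and 6178), and centring with marked spots out of the background model, chosen after the values were seen, 43 and 4 (8121 and 7947). The scanner software's ratio gave 5 and 40 (4428 and 4446), and replicates 2 to 4 of the series table gave 4 and 25 (2163 and 2247). Probes one by one gave 4196 and 3743 over all probes. Dropping the pairing (no replicate block) gave 8 and 14 (1470 and 1192). The chloroplast median, -0.10, was 0.27 and 0.21 under the 2 centrings, -0.12 with the scanner software's ratio, -0.13 with the series table and -0.077 on slide 2 alone, which was added later. Leaving out each replicate gave 8 to 9 higher and 14 to 22 lower loci (8 and 14 without replicate 4, with 1649 and 1517 over all loci), a median of -0.105 to -0.082, and 1373 to 2139 higher and 1179 to 1737 lower over all loci. ATCG00740 turned to 0.0044 with centring. *SCA3* turned to 0.058 and 0.038 with the centrings, 0.020 with the scanner software's ratio, 0.034 with the series table and 0.0036 with array weights, and ran from -0.049 to 0.028 with a replicate left out. *SIGE* turned to 0.0058 with the second centring, and *SIGF* to -0.028 and -0.042 with the scanner software's ratio and the series table, while it was called higher at 0.33 and 0.27 with the centrings and 0.16 without replicate 2. The cause of these changes was not tested. Slide as a block, outlier spots kept, dim probes left out, organelle probes given no weight in loess, a trended variance and array weights gave 8 to 9 higher and 22 to 27 lower. Groups by gene function and promoter class could not be run. With 4 arrays, an exact two-sided test of signs cannot go below 0.125.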

Other observations

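In the order of their codes, neighbouring chloroplast loci did not resemble each other in the loess log2 ratio, with r of -0.07 and rho of -0.03 over 65 neighbouring pairs, a description only. The codes were not matched to positions in the genome.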
